A study of Mus musculus with 4 samples.

Results

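The genes described here are 7 of the 31053 features in the count tables, taken by symbol: the constant segments of the delta and gamma chains of the gamma-delta T-cell receptor (Trdc and Tcrg-C1), a gamma and a delta variable segment (Tcrg-V6 and Trdv4), the scavenger receptor gene Cd163l1, the cytokine gene Il17a and the cytokine receptor gene Il23r. They were measured by 10x Genomics 3′ single-cell RNA-seq in the stromal vascular fraction of mouse inguinal white adipose tissue, the cells that remain once adipocytes have been removed. The iAdFASNKO group was a pool of 8 mice of a line in which, by its name, adipocytes lose Fasn (fatty acid synthase) upon induction, although the labels do not spell the name out. The control group was a pool of 7 mice, for which the labels name C57BL/6; the genetic background of the knockout pool is not stated. Magnetic beads divided each pool into a lineage marker-positive fraction (Lin+), which the labels describe as immune, and the remaining stromal cells (Lin-), which gave 4 libraries. By clustering, progenitor-like stromal cells were 1288 of 4425 kept Lin+ iAdFASNKO cells and 1534 of 2888 kept Lin+ control cells. The sources used here name no Cre driver, inducing agent, age or sex. Adipocytes, the cells that carry the deletion, are not part of this fraction, so the deleted gene gave no check of the labels, and the genotype of each count table rests on its name.

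Each genotype and fraction was 1 library, so genotype and library cannot be told apart, no test between genotypes was possible, and all intervals below are 95% intervals that cover counting error only. Barcodes with at least 300 detected genes, at least 500 UMIs (unique molecular identifiers, each counting 1 captured RNA molecule) and at most 10% mitochondrial UMIs numbered 14931, and 14701 were kept after removal of called doublets: 4425 Lin+ iAdFASNKO, 2888 Lin+ control, 4314 Lin- iAdFASNKO and 3074 Lin- control cells. The 4 libraries held 19445334 to 29082989 UMIs in these cells, and the median cell had 3302 UMIs in Lin+ iAdFASNKO, 5359 in Lin+ control, 4150.5 in Lin- iAdFASNKO and 9116 in Lin- control. UMIs of 2 or more of the 7 genes (multi-member cells) were found in 85 of the 14931 barcodes and in 83 of the 14701 kept cells. Across all pairs of libraries 467 cell barcodes occurred in both, and 11 of these matches involved a multi-member cell.

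Gamma-delta T cells carry a T-cell receptor built from a gamma and a delta chain in place of the alpha and beta chains of conventional T cells. In mice, one fetal wave of these cells joins the Tcrg-V6 and Trdv4 segments into an almost invariant receptor, settles in barrier and adipose tissues, and is poised to release interleukin 17A (IL-17A) when interleukin 23 (IL-23) binds the receptor encoded by Il23r. In adipose tissue such cells are known to act on stromal cells through the IL-17 receptor and to take part in thermogenesis and tissue maintenance. Cd163l1 (also called Scart1) encodes a scavenger receptor that marks gamma-delta T cells committed to IL-17.

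Both variable segments belong to rearranging loci, and the 60 bases shown here are those with which their germline coding sequences end, the stretch that leads into the junction with the joining segment. Trdv4 lies on chr14:54074905-54075515 (plus strand) and Tcrg-V6 on chr13:19190356-19190929 (plus strand) of GRCm38. In each sequence, taken from the GENCODE M21 transcripts, capitals mark the codon of the conserved cysteine that opens the third complementarity-determining region.
Trdv4: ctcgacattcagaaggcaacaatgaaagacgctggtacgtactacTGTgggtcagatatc
Tcrg-V6: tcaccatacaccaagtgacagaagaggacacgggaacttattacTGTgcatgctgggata
The constant segments are Trdc on chr14:54142851-54148868 and Tcrg-C1 on chr13:19214103-19217024, both on the plus strand. The coding sequence of Tcrg-C1 was 94.6% identical to that of Tcrg-C2 and 71.7% identical to that of Tcrg-C4, so how the counting divided reads between Tcrg-C1 and Tcrg-C2 is uncertain.

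Cd163l1 lies on chr7:140218267-140231145 (plus strand), next to its relative 5830411N06Rik (Scart2) on chr7:140247284-140300736. Il17a lies on chr1:20730905-20734496 (plus strand) and Il23r on chr6:67422932-67491855 (minus strand).

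Summed over all kept cells, the members gave 1372 UMIs, and Trdc gave the most of them. Trdc, the delta constant segment, had 186 UMIs in 60 Lin+ iAdFASNKO cells and 221 UMIs in 43 Lin+ control cells, or 8.51 and 11.4 UMIs per 1000000 UMIs of the same cells (CPM). In the Lin- fraction Trdc had 106 UMIs in 34 iAdFASNKO cells and 113 UMIs in 26 control cells (5.11 and 3.89 CPM). The level was thus highest in Lin+ control and lowest in Lin- control, with a Trdc ratio of iAdFASNKO over control of 0.749 (interval 0.613 to 0.915) in Lin+ and 1.31 (0.999 to 1.73) in Lin-.

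Tcrg-C1, the gamma constant segment, had 57 UMIs in Lin+ iAdFASNKO, 53 in Lin+ control, 28 in Lin- iAdFASNKO and 61 in Lin- control. Trdv4 had 53 UMIs in Lin+ iAdFASNKO, 56 in Lin+ control, 94 in Lin- iAdFASNKO and 62 in Lin- control. Tcrg-V6 was rare, with 3, 1, 9 and 6 UMIs in the same order of libraries. In the kept cells Cd163l1 was nearly level, with 2.24 CPM in Lin+ iAdFASNKO, 2.06 in Lin+ control, 2.27 in Lin- iAdFASNKO and 1.96 in Lin- control. The cell filter had removed 32 of its 81 UMIs in Lin+ iAdFASNKO and 7 of 47 in Lin+ control. In Lin- it had removed 14 of 64 in iAdFASNKO and 14 of 71 in control.

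The cytokine and its inducing receptor were the scarcest protein-coding members. Il17a had no UMI in the kept Lin+ iAdFASNKO cells (interval 0 to 0.169 CPM) and 13 UMIs in 3 Lin+ control cells. It had 9 UMIs in 4 Lin- iAdFASNKO cells and 22 UMIs in 4 Lin- control cells. Il23r had 7 UMIs in Lin+ iAdFASNKO, 9 in Lin+ control, 7 in Lin- iAdFASNKO and 3 in Lin- control. With 11 Il17a-positive cells in all, single cells decide this gene: 1 Lin+ control cell held 8 of its 13 UMIs and 1 Lin- control cell held 9 of its 22. The 1639 Lin+ iAdFASNKO barcodes that the filter removed included 1 barcode, over the mitochondrial limit, with 6 Il17a UMIs.

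**Figure D1:**
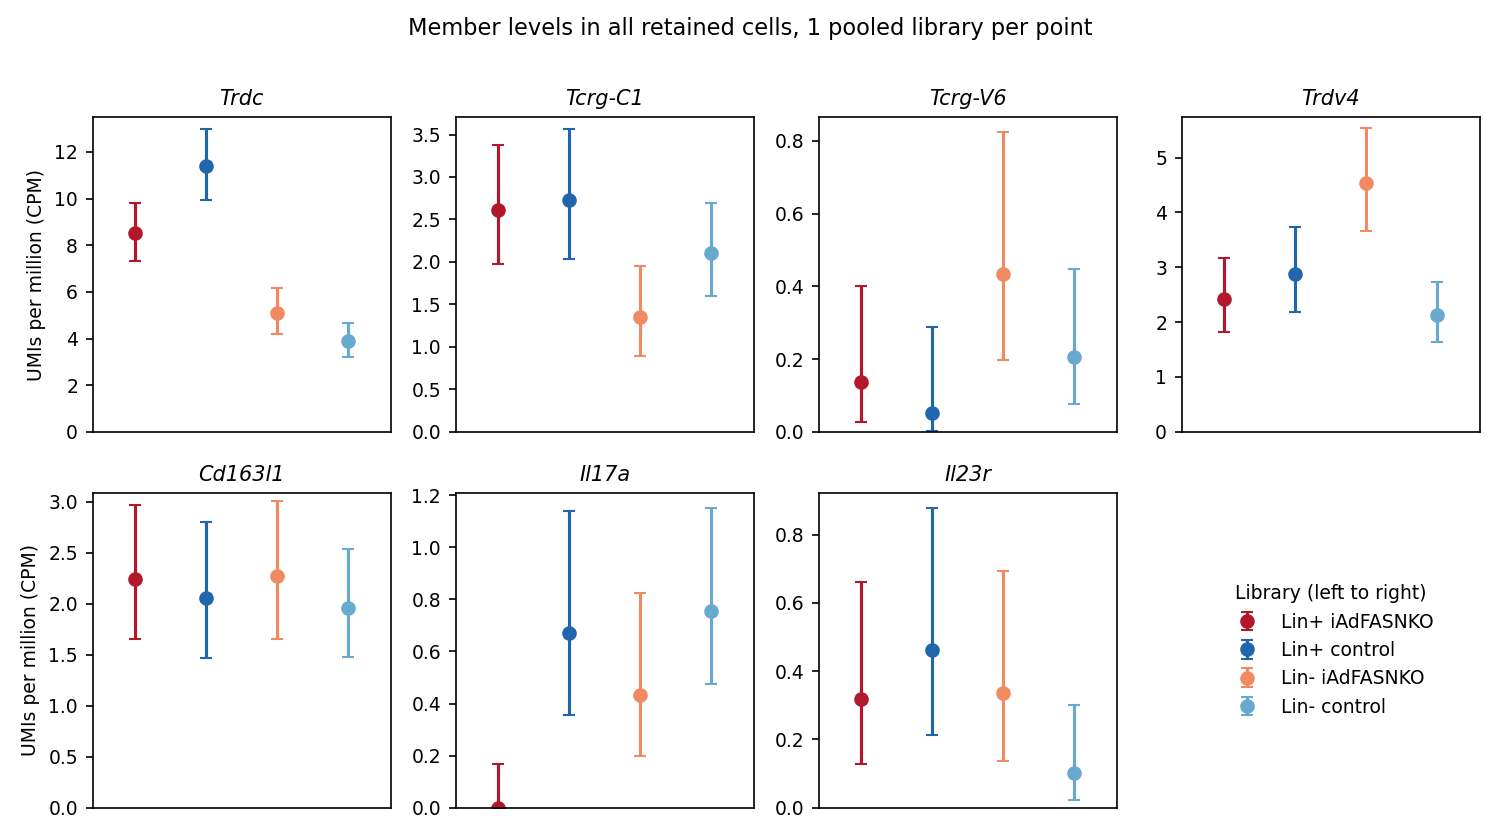
Level of each member in all kept cells, in CPM (linear axis), with 1 point per pooled library and exact Poisson 95% intervals; there are no replicates. Trdv4 stands at 4.53 CPM in Lin- iAdFASNKO against 2.13 in Lin- control, Il17a is at 0 in Lin+ iAdFASNKO, and Cd163l1 lies between 1.96 and 2.27 CPM in all 4 libraries.

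Genes with 20 or more UMIs in the libraries compared counted as measured. They were called higher or lower where the CPM ratio was past 1.5-fold and its interval left out 1. In Lin+, 4 members were measured (Trdc, Tcrg-C1, Trdv4 and Cd163l1) and none was called, where 14.4% of 14500 measured genes were called higher and 9.39% lower. In Lin-, 5 members were measured, Il17a being the fifth, and 1 was called: Trdv4 was higher, with a ratio of 2.13 (1.53 to 2.98). There 12.1% of 14687 genes were called higher and 7.29% lower, so 1 call among 5 is near the background. The ratio of Il17a in Lin- was 0.573 (0.232 to 1.3) and that of Tcrg-C1 0.643, neither past the rule. In summed cells, fewer cells of a type and less RNA per cell cannot be told apart. For all members together the ratio was 0.804 (0.695 to 0.931) in Lin+ and 1.3 (1.11 to 1.52) in Lin-. Both ratios passed to the other side of 1 when a single cluster of 201 cells (cluster 16, which mixed cycling and epithelial genes) was left out: for all members they became 1.08 (0.918 to 1.26) in Lin+ and 0.945 (0.789 to 1.13) in Lin-. Cluster 16 held 1.69% of the member UMIs of Lin+ iAdFASNKO, 26.2% of Lin+ control, 30.3% of Lin- iAdFASNKO and 4.94% of Lin- control. For Trdv4 in Lin-, it held 32 of the 94 UMIs of iAdFASNKO and 9 of the 62 of control. Cluster L6, described below, held 29 and 4 of them. L8, the cluster with the highest member levels, held 19 and 23.

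Of the gamma and delta receptor segments in the gene annotation, 26 were listed and 14 had at least 1 UMI in any barcode. Behind Trdc (747 UMIs over all barcodes), Trdv4 (304) and Tcrg-C1 (240) came Tcrg-C4 with 185, Trgv2 with 145, Tcrg-C2 with 114 and Tcrg-V1 with 38. Tcrg-V6 had 29, Trdv1 had 13, Tcrg-V4, which a second IL-17-producing subset uses, had 11, and Tcrg-V5, the segment of epidermal gamma-delta T cells, had 5. Trgv2 in Lin- was the other segment past the rule between genotypes, higher in iAdFASNKO with a ratio of 2.54 (1.34 to 5.01). Variable segments are spliced onto a constant region, and 3′ libraries read the end of the transcript, so a missing UMI of a variable segment does not show that a cell lacked it.

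The cells were clustered without the members and without any antigen receptor segment, so that the clusters do not depend on the 7 genes. One small T-cell-like cluster, L8, had the highest level of every member. It held 86 cells (17 Lin+ iAdFASNKO, 12 Lin+ control, 37 Lin- iAdFASNKO and 20 Lin- control), with 5830411N06Rik, Il17re, Cxcr6 and Il18r1 among its leading genes. By the detection and level limits used to name clusters, 6 of the 8 T-cell markers counted in L8. With any UMI counted, L8 had UMIs of 8 of the 8 T-cell markers (3963 CPM in sum). It also had UMIs of 6 of the 6 gamma-delta T-cell markers (2409 CPM), among them Sox13, Blk, Maf, Zbtb16 and 5830411N06Rik. The macrophage markers gave none (0 of 8), the natural killer (NK) markers Ncr1, Klre1, Eomes and Gzma were at 0 while the other 3 of the 7 summed to 45.2 CPM, and the group 2 innate lymphoid (ILC2) markers Il1rl1, Il13 and Il5 were at 0. In L8 the other ILC2 markers summed to 1916 CPM. The B-cell markers summed to 122 CPM (5 of 6 with a UMI), the progenitor markers to 456 CPM (5 of 6) and the haemoglobin genes to 1631 CPM (4 of 4). The part of these markers in the results was not tested. L8 gave 44.7% of all member UMIs (613 of 1372).

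Il17a, Il23r and Cd163l1 were the members most concentrated in L8. Il17a was at 145 CPM in L8 (interval 98.9 to 204), with 32 of its 44 UMIs, and at 4.22 CPM in cluster 16 with 11 UMIs; the last Il17a UMI was in cluster L6. Il23r was at 90.4 CPM in L8 (55.2 to 140), with 20 of its 26 UMIs, and at 6.90 CPM in the ILC2-like cluster L7. Cd163l1 was at 610 CPM in L8 (511 to 722), with 135 of its 193 UMIs, and next at 30 CPM (12.9 to 59) in L6. L8 stood above its neighbour in the order with intervals that did not overlap for each of these 3 genes.

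The receptor segments were spread more widely. Trdc was at 1048 CPM in L8 (918 to 1192), followed by 130 CPM (102 to 163) in the NK-cell-like cluster L3, 99.5 CPM (78.0 to 125) in cluster L5, led by Ccl5 and Eomes, and 88.7 CPM (54.9 to 136) in the T-cell-like cluster L9. The intervals of L3, L5 and L9 overlapped, so their order is not resolved. Tcrg-C1 was at 456 CPM in L8 (372 to 555), then at 55.2 CPM (31.5 to 89.6) in ILC2-like L7 and at 23.2 CPM (13.5 to 37.1) in L5. Trdv4 was at 366 CPM in L8 (291 to 455), then at 124 CPM (85.1 to 174) in L6, a cluster of the Lin- fraction led by Ccr10 and Il17rb, and at 65.5 CPM (39.4 to 102) in L7. Tcrg-V6 was at 54.2 CPM in L8 (28.0 to 94.7), on 12 of its 19 UMIs.

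L8 was the highest of the clusters with at least 10 cells in each of the 4 libraries for Trdc, Tcrg-C1, Tcrg-V6, Trdv4, Cd163l1 and Il23r, and in the 3 libraries in which Il17a had a UMI. B-cell-like and progenitor-like cells, which should lack these genes, served as a comparison. Trdc had a UMI in 46.5% of L8 cells (median 2202 UMIs a cell), in 0.194% of B-cell-like cells (median 2456) and in 0.153% of progenitor-like cells (median 7151.5). Cd163l1 had a UMI in 34.9% of L8 cells, against 0.130% of B-cell-like and 0.0511% of progenitor-like cells. Il17a was found in 8.14% of L8 cells (7 of 86) and in no B-cell-like or progenitor-like cell, where exact intervals for the share of cells with a UMI reach 0.239% of 1543 and 0.0628% of 5870 cells; they do not limit the share of cells that express the gene. Trdv4 was in 32.6% of L8 cells, in 0 of 1543 B-cell-like cells and in 0.886% of progenitor-like cells; 41 of those progenitor-like cells lay in cluster 0, so they give no common level of free RNA for Trdv4.

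**Figure D2:**
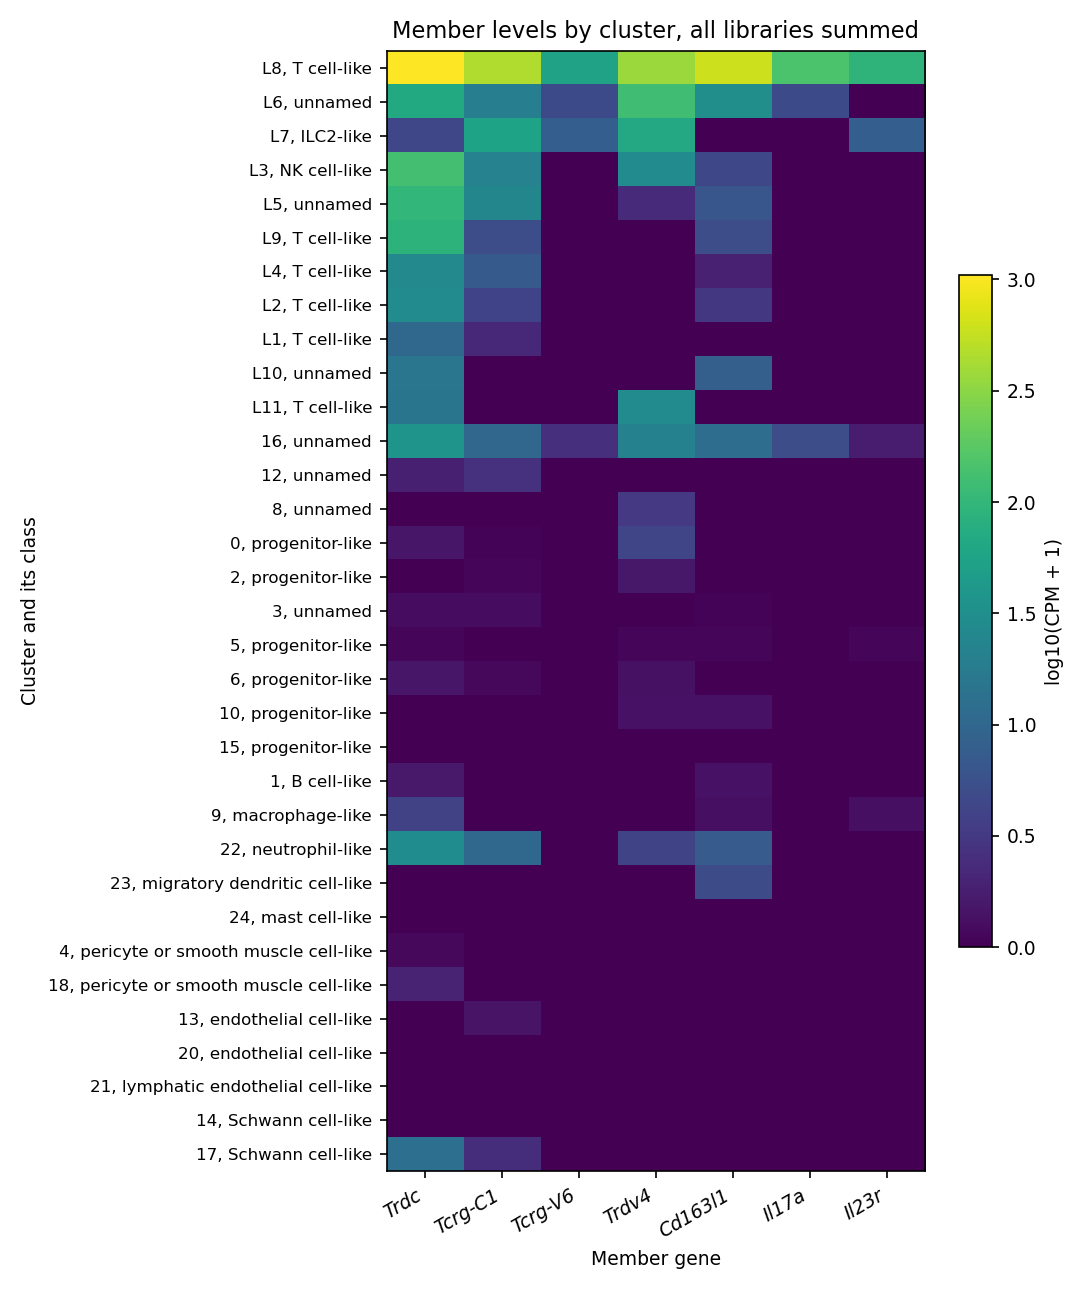
Level of each member in each cluster with all libraries summed, as log10(CPM + 1) by colour; rows are clusters with their class, columns are the 7 genes. L8 is the brightest row for every gene, with Trdc at 1048, Cd163l1 at 610 and Il17a at 145 CPM, while the stromal, B-cell-like and macrophage-like rows are at or near 0.

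L8 was 0.384% of Lin+ iAdFASNKO cells (interval 0.224 to 0.614) and 0.416% of Lin+ control cells (0.215 to 0.725), a ratio of 0.925 (0.442 to 1.93). In Lin-, L8 was 0.858% of iAdFASNKO cells (0.605 to 1.18) and 0.651% of control cells (0.398 to 1.00), a ratio of 1.32 (0.767 to 2.27). Neither difference was detectable at this number of cells. The other T-cell-like clusters were 13.2% of Lin+ iAdFASNKO cells against 5.61% of Lin+ control cells, and 0.765% of Lin- iAdFASNKO cells against 0.195% of Lin- control cells.

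The bead sort placed L8 and the other T-cell-like cells differently. In iAdFASNKO the share of L8 in Lin+ over that in Lin- was 0.448 (0.253 to 0.794) and in control 0.639 (0.313 to 1.30). For the other T-cell-like clusters the same ratio was 17.3 (12.2 to 24.5) in iAdFASNKO and 28.7 (12.7 to 64.8) in control. In the fraction labelled as lacking lineage markers, L8 had 37 cells and the other T-cell-like clusters 33 in iAdFASNKO, and 20 and 6 in control. No source used here names the lineage antibodies of the beads. Ptprc, which encodes the pan-leukocyte antigen CD45, was at 922 CPM in L8 (800 to 1057), against 1398 CPM (1358 to 1439) in the other T-cell-like clusters, and Cd3e, which encodes a subunit of the T-cell receptor complex, was at 804 CPM (691 to 932) against 522 CPM (497 to 547).

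**Figure D3:**
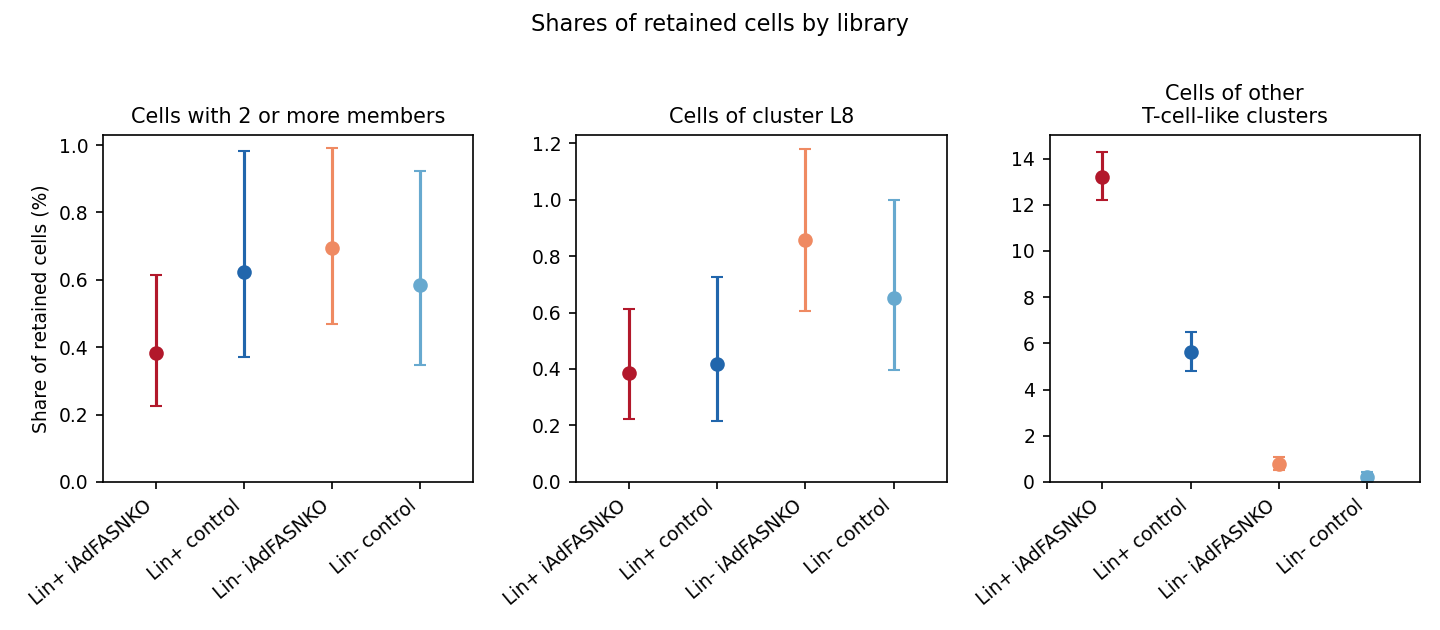
Share of kept cells, in percent, that had UMIs of 2 or more members (left), that lay in cluster L8 (middle) and that lay in the other T-cell-like clusters (right), 1 point per library with exact binomial 95% intervals. L8 is at 0.858% and 0.651% in the Lin- libraries, above its 0.384% and 0.416% in Lin+, while the other T-cell-like clusters reach 13.2% and 5.61% in Lin+.

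Within L8, several members were lower in iAdFASNKO than in control in the Lin- libraries, while in Lin+ no measured member was past the rule; the difference between the fractions was not tested. Of 5 measured members 4 were lower in Lin- (Trdc, Tcrg-C1, Cd163l1 and Il17a), where 3.6% of 833 measured genes were called higher and 10.3% lower; in Lin+ 4 members were measured, and 3.64% of 741 genes were called higher and 4.72% lower. In Lin-, Trdc was at 823 CPM in iAdFASNKO and 1503 CPM in control (ratio 0.547, 0.373 to 0.793), Tcrg-C1 at 224 and 710 CPM (ratio 0.316, 0.152 to 0.610) and Cd163l1 at 393 and 925 CPM (ratio 0.425, 0.244 to 0.712). Trdv4 did not follow, with 355 CPM in Lin- iAdFASNKO and 380 CPM in Lin- control (ratio 0.935, 0.482 to 1.80). Il17a had 3 UMIs in 2 of 37 L8 cells of Lin- iAdFASNKO and 17 UMIs in 3 of 20 L8 cells of Lin- control. In Lin+ the ratio was 1.36 (0.885 to 2.11) for Trdc, 1.04 for Tcrg-C1, 1.14 for Cd163l1 and 1.6 (0.795 to 3.4) for Trdv4.

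The IL-17 program went both ways in Lin- L8 cells: of 12 measured genes 4 were lower in iAdFASNKO (Rora at a ratio of 0.5, Blk at 0.425, Cd44 at 0.425 and Icos at 0.511) and 3 higher (5830411N06Rik at 3.66, Il7r at 1.67 and Il18r1 at 1.99), with a median log2 ratio of -0.50 against -0.11 over all genes. Outside this list Rgs1 (2.77) was higher and Trbc1 (0.252) lower. Cxcr6 (0.566) and Tnfaip3 (0.252) were also lower. The T-cell receptor complex genes Cd3d (0.884), Cd3e (1.13) and Cd3g (0.991) were not called. The median L8 cell had 1436 UMIs in Lin- iAdFASNKO and 2924 in Lin- control, and all members together had a UMI in 51.4% of L8 cells of Lin- iAdFASNKO and 90% of those of Lin- control. The part of depth in these differences was not tested.

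**Figure D4:**
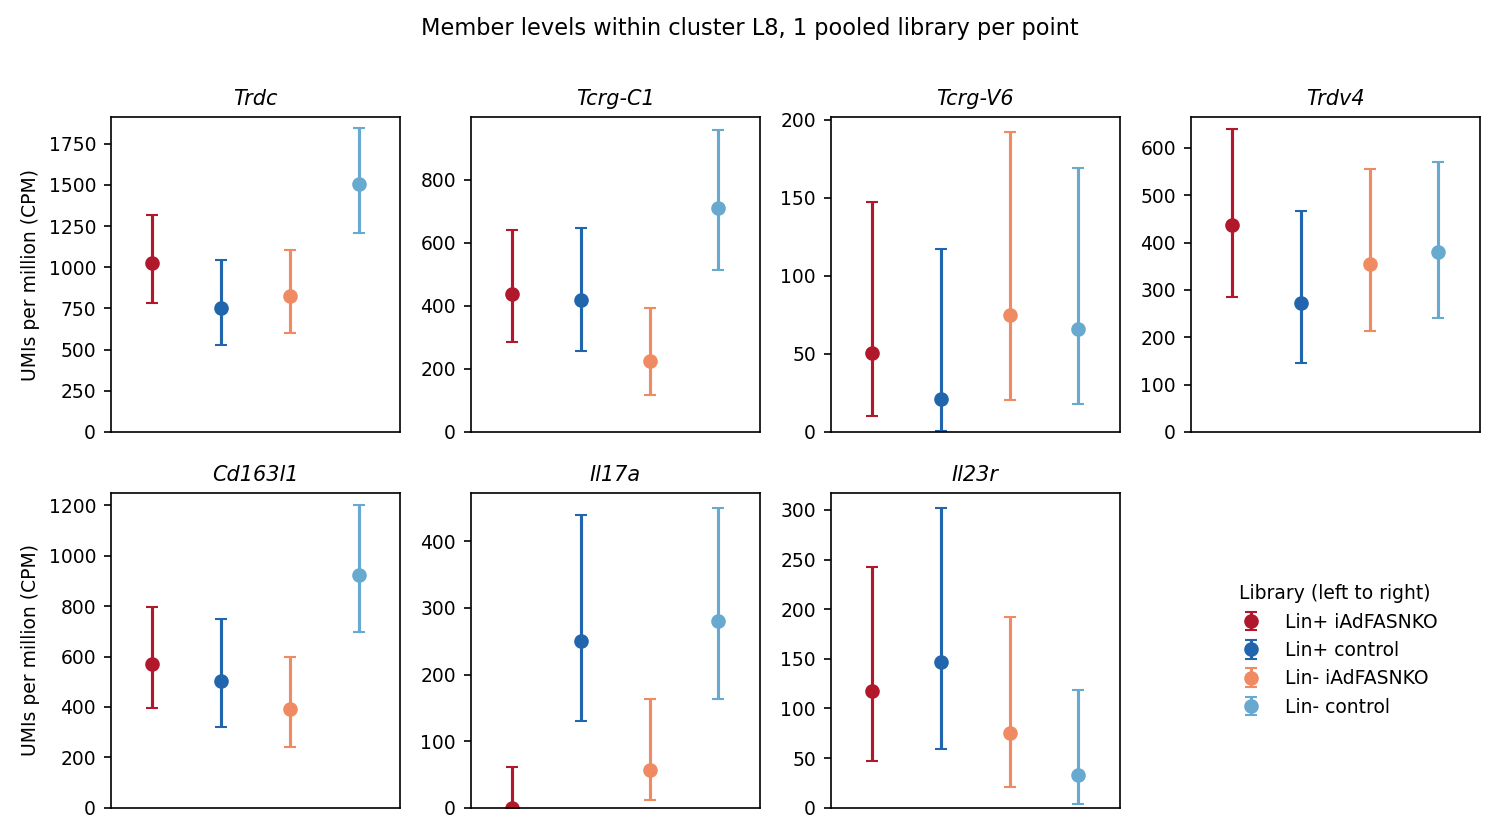
Level of each member within cluster L8, in CPM (linear axis), 1 point per library with exact Poisson 95% intervals, from 17, 12, 37 and 20 cells. In the Lin- pair Trdc, Tcrg-C1, Cd163l1 and Il17a are lower in iAdFASNKO than in control, with Trdc at 823 against 1503 CPM, while the intervals of the Lin+ pair overlap for every member but Il17a.

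The multi-member cells numbered 17 in Lin+ iAdFASNKO and 18 in Lin+ control, or 0.384% (0.224 to 0.614) and 0.623% (0.370 to 0.983) of cells, a ratio of 0.616 (0.318 to 1.19). In Lin- there were 30 in iAdFASNKO and 18 in control, or 0.695% (0.470 to 0.991) and 0.586% (0.347 to 0.924), a ratio of 1.19 (0.663 to 2.13). Neither interval excluded 1. With only cells of T-cell-like clusters counted, multi-member cells were 16 of 70 in Lin- iAdFASNKO and 16 of 26 in Lin- control. This is a ratio of 0.371 (0.219 to 0.629). L8 gave 37 of these 70 cells and 20 of these 26, with medians of 1436 and 2924 UMIs a cell in L8. The part of this make-up and depth in the ratio was not tested. In Lin+ the multi-member cells were 10 of 602 in iAdFASNKO and 6 of 174 in control, a ratio of 0.482 (0.178 to 1.31). Depth enters the number of multi-member cells over all clusters. Each cell was thinned to 1000 UMIs, and shallower cells were left out. Then 9 Lin+ iAdFASNKO, 5 Lin+ control, 18 Lin- iAdFASNKO and 12 Lin- control cells still had 2 or more members. These were 0.228%, 0.191%, 0.452% and 0.411% of the thinned cells. Cells with 3 or more members numbered 12 in Lin+ iAdFASNKO, 5 in Lin+ control, 15 in Lin- iAdFASNKO and 12 in Lin- control. A single Lin- iAdFASNKO cell of L8, with 2265 UMIs, held UMIs of all 7 members.

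Of the 83 multi-member cells 42 lay in L8 (50.6%), which is 48.8% of that cluster. Cluster 16 held 11, L5 held 8, L6 held 6, L3 and L4 held 3 each, L7 and L9 held 2 each, and the remaining 6 clusters held 1 each. T-cell-like clusters held 16 of the 35 multi-member cells of Lin+ (45.7%) and 32 of the 48 of Lin- (66.7%). Cluster L5 met the marker count for T cells (8 of 8 markers) but was left unnamed by the naming rule. With such unnamed clusters counted too, the shares were 23 of 35 in Lin+ (65.7%) and 33 of 48 in Lin- (68.8%). The share in named T-cell-like clusters rests on the processing. It was 9.09% in Lin+ and 6.67% in Lin- under a looser cell filter, and 10.4% in Lin- without the second clustering. Several of the single cells outside were large: 1 in the neutrophil-like cluster had 13863 UMIs and 1 in a Schwann-cell-like cluster had 22837, against medians of 1895 and 2554 UMIs in these clusters. The part of undetected doublets in such cells was not tested.

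Several members were found in the same cells. Of 14 cells with a Tcrg-V6 UMI, 12 had Trdc, 11 had Trdv4 and 9 had Cd163l1, where Trdv4 was found in 1.04% of the cells without Tcrg-V6. Of 59 cells with Cd163l1, 41 had Trdc (69.5%, 56.1 to 80.8) and 30 had Trdv4 (50.8%), where Trdc was found in 0.833% of the cells without Cd163l1. Trdv4 overlapped less with Trdc: 37 of its 164 cells had Trdc (22.6%, 16.4 to 29.7). Of the 11 cells with Il17a, 6 had Tcrg-C1, 5 had Trdc, 5 had Trdv4 and 4 had Il23r. These counts describe cells that share libraries and depth, and they carry no test.

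The combinations differed by cluster. Of the 42 multi-member cells in L8, 29 had a variable segment (Tcrg-V6 or Trdv4), 29 had Cd163l1, and 5 had Trdc and Tcrg-C1 and nothing else of the 7. Of the 11 multi-member cells in NK-cell-like L3 and in L5, 10 had Trdc and Tcrg-C1 alone, 1 had a variable segment and none had Cd163l1. The IL-17 program (18 genes, among them Maf and Blk) summed to 9040 CPM in the first set and 896 CPM in the second, while the interferon-gamma program (Cd27, Tbx21, Ifng, Eomes, Xcl1 and Nkg7) summed to 42.9 and 1700 CPM. Since both programs helped to define the clusters, these sums describe the cells and test nothing. The 11 multi-member cells of cluster 16 had a median of 14316 UMIs and 2270 CPM of the cycling markers, and 2250 CPM of the IL-17 program.

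Within L8, multi-member cells had less of the alpha chain of the conventional receptor than the cells with fewer members, a gene used neither by the clustering nor by the choice of cells. Trac, the alpha constant segment, had 4 UMIs in 2 of the 42 multi-member cells and 34 UMIs in 14 of the 44 others, or 34.3 and 324 CPM (ratio 0.106, interval 0.0273 to 0.297). By library, Trac was found in 0 of 8 multi-member cells and 6 of 9 others in Lin+ iAdFASNKO, and in 1 of 4 and 5 of 8 in Lin+ control. In Lin- iAdFASNKO it was in 1 of 14 multi-member cells and 3 of 23 others, and in Lin- control in none of either. The median depth was 2244.5 UMIs in the multi-member cells and 1983.5 in the others.

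Of all genes compared within L8, 7.72% of 1749 measured were called higher in the multi-member cells and 3.2% lower. The beta constant segments differed from each other: Trbc2 was lower, like Trac, and Trbc1 was not called. Trbc1 was at 395 CPM in the multi-member cells of L8 and 286 CPM in the other L8 cells (ratio 1.38, 0.853 to 2.26), and Trbc2 at 489 and 801 CPM (ratio 0.611, 0.428 to 0.865). Tcrg-C4, a further gamma constant segment that resembles Tcrg-C1, had 28 UMIs against 2 (ratio 12.6, 3.18 to 109). Cd247, the zeta chain of the receptor complex, had 49 UMIs against 8 (ratio 5.51, 2.59 to 13.5), and Cd3g had 173 against 83 (ratio 1.88, 1.44 to 2.47). The transcription factor gene Sox13 (ratio 2.85, 1.09 to 8.72) and the kinase gene Blk (ratio 3.06, 1.69 to 5.86), both known for their part in IL-17-producing gamma-delta T cells, were higher in the multi-member cells. Maf (ratio 1.24, 0.980 to 1.58) was not. These L8 ratios sum the 4 libraries, and Lin- control gave 16 of the 42 multi-member cells and 4 of the 44 others. By library, the interval of Blk lay above 1 in Lin+ iAdFASNKO only (ratio 3.41, 1.25 to 10.7), and that of Sox13 in none. Cd3g had ratios of 4.46 in Lin+ iAdFASNKO, 2.03 in Lin+ control, 1.68 in Lin- iAdFASNKO and 0.82 (0.464 to 1.53) in Lin- control.

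Multi-member cells of all clusters were also set against the other T-cell-like cells of the same library. Those comparison cells included the L8 cells with fewer than 2 members. They were 9 cells in Lin+ iAdFASNKO, 8 in Lin+ control, 23 in Lin- iAdFASNKO and 4 in Lin- control. The lists used here, apart from the members, were an IL-17 type gamma-delta program of 18 genes, the T-cell receptor complex, alpha-beta T-cell genes, an interferon-gamma program, tissue residence, and circulation and naive state. In Lin+ iAdFASNKO the IL-17 program had 10 of 12 measured genes higher and 0 lower with a median log2 ratio of 1.95, against a median of 0.12 over all genes, of which 9.23% were called higher and 1.95% lower. The genes called were Rora, Maf, Blk, Zbtb16, Ccr6, Ccr2, Cd44, Tmem176a, Tmem176b and Il18r1. Blk was at 141 CPM against 4.92 CPM in the other T-cell-like cells (ratio 28.6, 12.7 to 65.4), Zbtb16, which encodes the transcription factor PLZF, at 132 against 4.54 CPM, and the chemokine receptor gene Ccr2 at 564 against 59.4 CPM.

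The other libraries gave fewer calls. Their comparison cells differed in number and make-up. T-cell-like clusters held 602 cells in Lin+ iAdFASNKO, 174 in Lin+ control, 70 in Lin- iAdFASNKO and 26 in Lin- control, multi-member cells included. In the comparison cells the gamma-delta T-cell markers summed to 220, 415, 976 and 1006 CPM in that order. The part of this make-up in the calls was not tested. In Lin+ control 3 of 9 measured program genes were higher (Ccr2, Tmem176a and Tmem176b) and 1 lower (Il7r), with a median of -0.01 against 0.18 over all genes, of which 18.4% were called higher and 6.38% lower. In Lin- iAdFASNKO 3 of 10 were higher (Rora, Maf and Ccr2) and 1 lower (Il7r), with a median of 0.67 against 0.14, and 13.8% of all genes were called higher and 8.33% lower. In Lin- control 2 of 11 were higher (Tmem176a and Tmem176b) and 2 lower (Maf and Il7r), with a median of -0.25 against 0.33, and 19.6% of all genes were called higher and 10.6% lower. Cluster 16 weighed on these values: without it the medians were 2.28 in Lin+ iAdFASNKO, 0.54 in Lin+ control, 0.97 in Lin- iAdFASNKO and 1.12 in Lin- control. A single cell of cluster 16 in Lin- control had 111113 UMIs.

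The alpha-beta T-cell list was lower throughout. In Lin+ iAdFASNKO and in Lin+ control 6 of 6 genes were lower (Trac, Trbc1, Trbc2, Cd4, Cd8a and Cd8b1), in Lin- iAdFASNKO 3 of 3 measured and in Lin- control 2 of 2. Without cluster 16, 5 of 6 measured genes were lower in Lin+ iAdFASNKO and 6 of 6 in Lin+ control. In Lin- these counts were 2 of 3 in iAdFASNKO and 1 of 2 in control. By library in the same order, the list medians were -1.51, -1.73, -1.86 and -2.47 with cluster 16. Without it they were -1.59, -2.04, -2.38 and -0.92. Trac was at 169 against 552 CPM in Lin+ iAdFASNKO (ratio 0.307, 0.181 to 0.486) and at 211 against 447 CPM in Lin+ control (ratio 0.472, 0.328 to 0.663). In Lin- iAdFASNKO Trac had a ratio of 0.128 (0.0144 to 0.529), and in Lin- control it had no UMI in the multi-member cells and 16 in the other T-cell-like cells. The receptor complex genes had medians of 0.15, -0.28, -0.03 and -0.94 in the order Lin+ iAdFASNKO, Lin+ control, Lin- iAdFASNKO and Lin- control. Without cluster 16 the Lin- control median turned to 0.66, with 1 gene higher and 0 lower in place of 0 higher and 2 lower.

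Of the circulation and naive genes 3 of 6 were lower in Lin+ iAdFASNKO (Klf2, Lef1 and Tcf7) and 5 of 6 in Lin+ control, while the tissue residence genes were higher for 3 of 4 in Lin+ iAdFASNKO (Cxcr6, Itgae and Rgs1) and 2 of 5 in Lin+ control (Cxcr6 and Itga1). Without the 1 cell of cluster 16 in Lin+ iAdFASNKO, 1 residence gene was higher there (Cxcr6) and 1 lower, and the median log2 ratio was 0.09, against 1.18 with it. Cxcr6, a chemokine receptor of tissue-resident lymphocytes, was at 376 against 75.7 CPM in Lin+ iAdFASNKO and at 243 against 84.8 CPM in Lin+ control. The interferon-gamma program was mixed, with Nkg7, a cytotoxic granule gene, higher and Cd27 lower in both Lin+ libraries; without the 4 cells of cluster 16, 0 genes of this list were higher and 0 lower in Lin+ control. Haemoglobin genes, a sign of free erythroid RNA, summed over all libraries to 1023 CPM in the multi-member cells and 13303 CPM in the other T-cell-like cells. By library they were at 2292 and 12785 CPM in Lin+ iAdFASNKO and 1113 and 18502 in Lin+ control. In Lin- they were at 0 and 35.3 CPM in iAdFASNKO and 542 and 0 in control. The cycling markers summed to 1219 and 33.7 CPM over all libraries. Progenitor markers summed to 1471 CPM in the multi-member cells and 293 CPM in the other T-cell-like cells. By library they were at 3082 and 471 CPM in Lin- iAdFASNKO, 1881 and 486 in Lin+ control, 1120 and 266 in Lin- control, and 244 and 247 in Lin+ iAdFASNKO. NK markers summed to 614 and 325 CPM over all libraries. They were higher in Lin+ (592 and 309 CPM in iAdFASNKO, 1324 and 404 in control). In Lin- they were lower (228 and 259 CPM in iAdFASNKO, 0 and 414 in control). A single cell of cluster 16 held 137 of the 245 NK marker UMIs of the Lin+ control multi-member cells. The part of all these markers in these lists was not tested.

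By ratio in both Lin+ libraries, 262 genes were higher and 148 lower of 4657 measured in both. Most of the 15 highest were genes of the cell cycle, namely Cenpf, Hist1h1b, Ube2c, Top2a, Birc5, Hist1h2ae, Mki67, Prc1, Uhrf1, Hist1h2ap and Kpna2. The others were Klrc2, an NK receptor gene; Tyrobp and Fcer1g, which encode signalling adaptors; and Lpl, which encodes lipoprotein lipase. Top2a was at 441 against 12.9 CPM in Lin+ iAdFASNKO and at 1124 against 14.1 CPM in Lin+ control. Without cluster 16 the count higher in both was 120, led by Lpl, at 118 against 6.81 CPM in Lin+ iAdFASNKO and 582 against 14.1 CPM in Lin+ control. The 118 CPM rest on 9 UMIs. The Lin+ control multi-member cells included 1 Schwann-cell-like cell of 22837 UMIs and 1 progenitor-like cell of 11042 UMIs. The part of such cells in these genes was not tested. The 10 lowest were Tdrp, Cd8b1, Dapl1, Fam241a, Cd8a, Lef1 and 4 haemoglobin genes (Hba-a1, Hbb-bs, Hbb-bt and Hba-a2).

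Across 87 groups of at least 20 cells, formed by cluster and library, the genes whose level was most like that of the summed members were Cxcr6 (Pearson r = 0.90 on log2(CPM + 1)), Gm29243 (0.86), Tcrg-C4 (0.85), Gata3 and Zap70 (0.84 each), Il18r1, Il12rb1 and Il2rb (0.83 each), and Tnfsf14 and Sla2 (0.82 each). The L8 groups of Lin+ iAdFASNKO (17 cells) and Lin+ control (12 cells) were too small to enter. These r values describe groups that share 4 libraries and differ in depth.

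The IL-17 axis outside the members was sparse on the side of the ligands. Il17f, the ligand gene closest to Il17a, had 5 UMIs, all in T-cell-like cells. Il17d was the abundant family member with 3004 UMIs, of which 59.7% were in progenitor-like cells; Il17b had 10 UMIs and Il17c none. Of the cytokines that induce IL-17, Il12b, which encodes the subunit shared by interleukin 12 and IL-23, had 17 UMIs, all in migratory dendritic-cell-like cells, and Il23a, the subunit particular to IL-23, had 16 UMIs, of which progenitor-like cells gave 6, neutrophil-like cells 4 and B-cell-like cells 3. Il1b came from neutrophil-like cells (7259 CPM) and macrophage-like cells (470 CPM). Il7, a survival factor for these T cells, was at 297 CPM in lymphatic and 62.8 CPM in blood endothelial-like cells.

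Progenitor-like cells, the fibroblast lineage from which adipocytes arise, carried the receptor. Il17ra, the subunit shared by the IL-17 receptors, was at 85.0 CPM in Lin+ iAdFASNKO and 46.1 CPM in Lin+ control progenitor-like cells (ratio 1.84, 1.66 to 2.05), and at 74.1 and 43.0 CPM in Lin- (ratio 1.72, 1.54 to 1.92). It was the 1 gene called higher among 7 measured of the receptor and signalling list in each fraction, with 0 lower; in Lin+ progenitor-like cells 9.8% of all genes were called higher and 3.83% lower, and in Lin- 7.01% and 5.51%. The list median was 0.17 against 0.13 over all genes in Lin+ and -0.20 against 0.05 in Lin-. Il17rc, the partner subunit for IL-17A, had ratios of 1.12 (0.964 to 1.31) and 0.782 (0.648 to 0.943), and Stat3, which transmits the IL-23 signal, 1.00 and 0.801. Il17d was at 22.9 CPM in Lin+ iAdFASNKO and 35.8 CPM in Lin+ control progenitor-like cells (ratio 0.638, 0.541 to 0.749), and at 40.7 and 52.3 CPM in Lin- (ratio 0.779, 0.688 to 0.880).

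Genes that IL-17 is known to induce in stromal cells were more often lower than higher in iAdFASNKO progenitor-like cells. In Lin+ 2 of 11 measured genes were higher (Il33 and Saa3) and 4 lower (Cxcl1, Ccl2, Ccl7 and Mmp3), with a median log2 ratio of -0.44 against 0.13 over all genes. In Lin- 1 of 12 was higher (Saa3) and 6 lower (Cxcl1, Il6, Ccl2, Ccl7, Tnfaip3 and Mmp13), with a median of -0.54 against 0.05. The neutrophil chemokine gene Cxcl1 was at 99.9 CPM in Lin+ iAdFASNKO and 157 CPM in Lin+ control, and at 351 CPM in Lin- iAdFASNKO and 580 CPM in Lin- control. The monocyte chemokine gene Ccl7 was at 80.2 CPM in Lin+ iAdFASNKO and 147 CPM in Lin+ control, and at 136 and 473 CPM in Lin-.

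Saa3 and Il33 ran the other way. Saa3, an acute-phase protein gene, was at 17.7 CPM in Lin+ iAdFASNKO and 6.94 CPM in Lin+ control (ratio 2.56, 1.98 to 3.32), and at 27.4 and 11.9 CPM in Lin- (ratio 2.29, 1.87 to 2.81). Il33, a stromal cytokine gene that gamma-delta T cells are known to sustain in fat, had a ratio of 1.68 (1.5 to 1.88) in Lin+ and 0.973 (0.803 to 1.18) in Lin-. Nfkbiz, a direct mediator of the IL-17 response, had ratios of 1.07 and 0.713, neither past the rule.

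A cluster led by Cxcl1, Ptx3 and Ccl7 (cluster 5) was 3.18% of the progenitor-like cells of Lin+ iAdFASNKO and 13.4% of Lin+ control, and 17.1% of Lin- iAdFASNKO and 37.9% of Lin- control. Cluster by cluster, the medians of the response list lay between -0.15 and 0.18 in 5 Lin+ clusters and between -0.29 and 0.27 in 6 Lin- clusters. The part of these cluster shares in the lower values was not tested. The ratio of Il17ra lay between 1.18 and 2.27 in the 5 Lin+ clusters and between 1.65 and 2.65 in the 6 Lin- clusters.

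**Figure D5:**
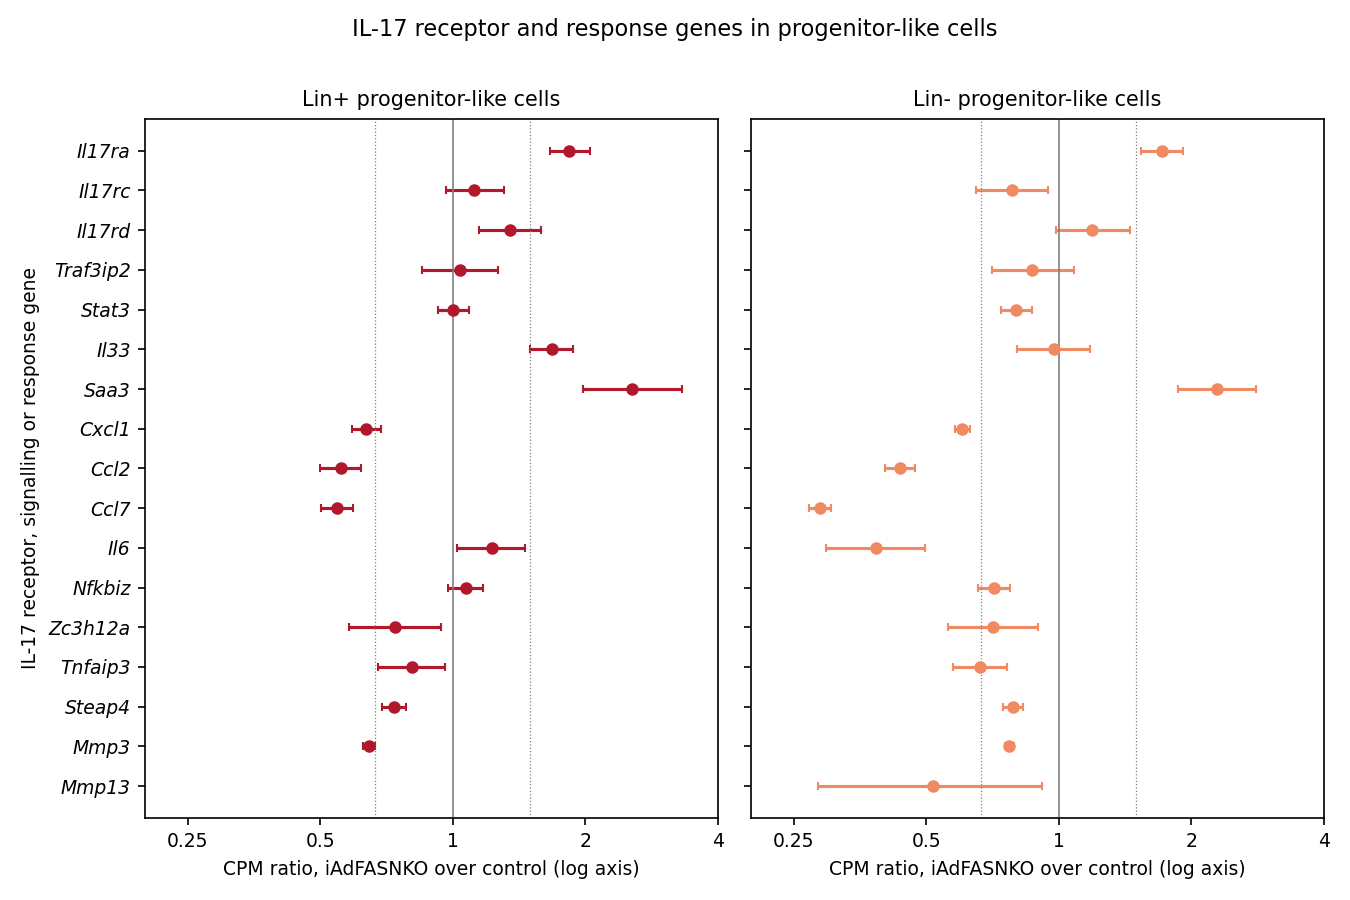
CPM ratio of iAdFASNKO over control (log axis) for IL-17 receptor, signalling and response genes in progenitor-like cells of the Lin+ (left) and Lin- (right) fraction, with exact conditional 95% intervals; dotted lines mark 1.5-fold in either direction, and genes under 20 UMIs are left blank. Il17ra (1.84 and 1.72) and Saa3 (2.56 and 2.29) are to the right in both panels, and Cxcl1, Ccl2 and Ccl7 to the left.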

How the data were processed

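The deposited files are 2 matrices of raw UMI counts, made by the authors with the 10x Genomics 3′ v3 chemistry, per the labels' protocols, with Cell Ranger 3.1.0, Seurat 3.0 and build mm10 named in the submitters' processing notes. The barcode tag gives the fraction, per the labels, and 0 per-sample columns were left unmapped. No depth-normalized values were used.

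Filtered cells were screened with Scrublet (expected rate 6%) in scanpy 1.11.5 and clustered by the Leiden method (leidenalg 0.10.2; resolution 1, 2000 variable genes, 30 components, 20 neighbours), without the members, antigen receptor segments, proliferation, sex-linked and mitochondrial genes. T, NK and ILC2 candidates were clustered again with 20 components. Classes are "X-like" by marker lists; the second clustering and the naming thresholds were set after seeing the data. Shares have exact binomial intervals (SciPy 1.17.1), ratios of shares Katz intervals, CPM Poisson intervals (exact), and CPM ratios intervals conditional on the summed count. The ratio script was tested on simulated counts. With 1 library per group no p-value was computed.

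The members and lists were chosen with earlier results of these data known. Named genes are the members, receptor segments, list genes, the 15 highest and 10 lowest ratios in both Lin+ libraries and the 10 most alike; genes that describe a cluster, and single cells named, were chosen after their values were seen. Alternatives varied the cell filter, doublets, scaling, clustering, gene minimum, number of members and thinning. A single gene of the lists enters their counts and is not reported here.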

Additional observations from a re-analysis of the deposited data

Results flagged for a closer look

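The ratio of all members together, iAdFASNKO over control, lay on opposite sides of 1 in the 2 fractions, at 0.804 in Lin+ and 1.3 in Lin-. With 1 library per group the difference between the fractions was not tested, and without cluster 16 the ratios were 1.08 and 0.945.

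Il17a had 6 UMIs in 1 Lin+ iAdFASNKO barcode that was left out for exceeding the mitochondrial limit, where the kept cells of that library had 0.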

How the results depend on the processing

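Of 70 values recomputed under an alternative, 42 stayed within the counting interval of the reported ratio or share, or within 0.1 of a reported log2 median. Another 19 moved further, and 9 turned a median's sign or a ratio whose interval had left out 1; the causes were not tested. The ratio for all members in Lin+ (0.804) became 0.965 under a looser filter (200 genes, 20% mitochondrial UMIs), 0.462 under a stricter one (500 genes, 1000 UMIs, 5%), 0.939 over all barcodes and 1.08 without cluster 16; in Lin- (1.3) it became 0.945 without cluster 16. The ratio of shares of multi-member cells in Lin+ (0.616) was 1.57 for 3 or more members, 1.31 without Tcrg-C1 and 1.19 after thinning. In Lin- (1.19) it was 0.371 with only cells of T-cell-like clusters counted and 0.891 for 3 or more members. These 5 also passed to the other side of 1. The share of multi-member cells in T-cell-like clusters (45.7% in Lin+, 66.7% in Lin-) was 9.09% and 6.67% under the looser filter, and 10.4% in Lin- after the first clustering alone.

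For the IL-17 program, the median with genes of 1 or more UMIs was 2.90 in Lin+ iAdFASNKO, 1.32 in Lin+ control and -0.01 in Lin- control. With 3 or more members it was 2.21 in Lin+ iAdFASNKO, 1.15 in Lin+ control, 0.80 in Lin- iAdFASNKO and 1.01 in Lin- control, and without cluster 16 it was 2.28, 0.54, 0.97 and 1.12 in that order. In progenitor-like cells, scaling by the median ratio gave 0.04 for the receptor list and -0.57 for the response list in Lin+, and genes of 1 or more UMIs gave -0.04 for the receptor list in Lin-. The median over clusters gave 0.17 for the response list in Lin+, and 0.10 for the receptor and -0.11 for the response list in Lin-. Leaving out cluster 16, the median over clusters, the first clustering alone and the other filters for the share in T-cell-like clusters were chosen after seeing the data. No paired analysis was possible because each group was 1 library. Depth limits Il17a, Il23r and Tcrg-V6 most.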

Other observations

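Trdv4 was also found outside lymphocytes. In cluster 0, progenitor-like cells led by Pi16, 41 of 1614 cells had a Trdv4 UMI and none of these had Trdc: 16 were Lin+ iAdFASNKO, 23 were Lin+ control and 2 were Lin- control cells.

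The ILC2-like cluster L7 had 16 UMIs of Tcrg-C1 in 15 of 98 cells, with 1 UMI of Trdc. In cluster L6, Trdv4 was at 124 CPM and Trdc at 67.4 CPM.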
